A study of Mus musculus with 2 samples.

Results

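The transcripts described here are those of 9 transcription factor genes, the AP-1 subunits Fos, Fosb, Fosl1, Fosl2, Jun, Junb and Jund and their partners Atf3 and Batf, in the gastrocnemius muscle of mice. The genes were chosen by name, as all probes for genes on the array that carry 1 of these 9 names. No measured value enters that rule, but the names were picked with earlier results of these data known. They had 10 probes in 28 spots, out of 25466 named genes on the array, and 7 of the 9 were well above background on both arrays. The immobilised group was male C57BL/6 mice, 9 weeks old, that had been kept in a plaster cast for 11 days. The control group was mice of the same strain, sex and age, and the labels name no treatment for them. Both groups are wild type, with no allele or agent named. Gastrocnemius RNA of a group was combined into 1 pool, read here as 6 mice per pool, and labelled with Cy3 for 1 whole-genome array. With 1 array on each side there was no spread between mice to test against, so no p-value is given, and precision is limited by that number of arrays.

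AP-1 is a family of dimers that bind DNA through a basic region and a leucine zipper. Jun proteins pair with each other or with Fos proteins, while Fos proteins need a Jun partner. Fos, Fosb, Jun, Junb and Atf3 are immediate early genes, whose transcription can be switched on within minutes by growth factors, stretch, calcium or stress without new protein synthesis. In skeletal muscle their transcripts are known to respond to contraction, stretch and injury.

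Shown first are the promoters of the 4 members with the highest log2 ratios as scaled below, a choice that depends on the background correction. Each holds 250 bases before and 50 after the start of the gene, 5′ to 3′ on the gene's strand, from RefSeq with build GRCm38.p6. The intervals are chr12:85473640-85473939 on the + strand for Fos, chr7:19309996-19310295 on the - strand for Fosb, chr8:84978699-84978998 on the - strand for Junb and chr1:191183284-191183583 on the - strand for Atf3. Capitals mark TGACG, the core of the cyclic AMP response element (CRE), or its reverse complement.
Fos: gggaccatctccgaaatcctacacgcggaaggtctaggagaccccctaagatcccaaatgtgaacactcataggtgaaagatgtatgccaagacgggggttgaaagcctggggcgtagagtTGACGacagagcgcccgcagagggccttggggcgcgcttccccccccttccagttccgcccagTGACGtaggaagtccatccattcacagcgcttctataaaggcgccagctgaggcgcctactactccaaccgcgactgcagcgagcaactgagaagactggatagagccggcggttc
Fosb: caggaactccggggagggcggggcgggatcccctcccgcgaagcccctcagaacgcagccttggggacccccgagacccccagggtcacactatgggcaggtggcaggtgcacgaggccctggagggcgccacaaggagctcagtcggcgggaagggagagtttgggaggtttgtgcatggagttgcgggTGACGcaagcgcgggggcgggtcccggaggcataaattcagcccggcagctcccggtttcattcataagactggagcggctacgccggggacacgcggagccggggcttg
Junb: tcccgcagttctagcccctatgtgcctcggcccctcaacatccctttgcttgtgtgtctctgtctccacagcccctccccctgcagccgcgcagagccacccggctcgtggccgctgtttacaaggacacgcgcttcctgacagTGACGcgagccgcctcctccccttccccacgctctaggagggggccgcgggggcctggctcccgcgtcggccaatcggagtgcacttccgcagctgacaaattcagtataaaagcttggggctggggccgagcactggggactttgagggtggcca
Atf3: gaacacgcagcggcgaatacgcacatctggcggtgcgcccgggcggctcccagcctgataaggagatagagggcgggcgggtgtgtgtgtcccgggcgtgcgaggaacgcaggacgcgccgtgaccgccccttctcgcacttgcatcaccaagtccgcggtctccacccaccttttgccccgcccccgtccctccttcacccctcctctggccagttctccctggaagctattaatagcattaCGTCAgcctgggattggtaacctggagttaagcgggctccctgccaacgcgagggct
The table gave a promoter for 8 of the 9 genes, and Fosl1 had no entry. The motif search covered both strands. The AP-1 site TGACTCA, the CRE with the letters TGACGTCA and the CArG box of serum response factor were found in 0 of the 8 windows, against 5.20%, 1.79% and 1.63% of all 32851 promoters of this length. The shorter core TGACG, which is part of the full CRE letters, was searched after these had been seen to be missing. It was found in 5 of 8 windows, those of Fos, Fosb, Junb, Atf3 and Batf, against 20.8% of all promoters. The windows of Fosl2, Jun and Jund did not hold it and are not shown. Fos held it at 2 places, starting at base -129 and base -66 from the start of the gene, Junb at -106, Fosb at -60 and Atf3, on the other strand, at -7. A match is a description of the letters only, and no link to the ratios was tested. Bases outside the windows were not searched, so a motif missing from a window may lie beyond it.

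Each probe is 60 bases long. Probe positions are on the mm9 assembly as the scanner files give them. No gene models of that build were used here, so their place within exons or UTRs is not given. The Fos probe lies at chr12:86817900-86817959, the Fosb probe at chr7:19888168-19888227, the Junb probe at chr8:87501881-87501940 and the Atf3 probe at chr1:192994547-192994606. The first 30 bases of these 4 probes, as the scanner files give them, identify what was read for the 4 members with the highest log2 ratios.
Fos: ggactttattttccagtagatagaaatcaa
Fosb: actgccgaccacaattcattgactccatag
Junb: agggctttgcggacggttttgtcaaagccc
Atf3: cacagcagctttgtccttggctacaaactg
Fosl2 had a bright probe at chr5:32460076-32460135 and a dim probe at chr5:32455088-32455147. The Jun probe lies at chr4:94716928-94716987, the Jund probe at chr8:73224436-73224495, the Fosl1 probe at chr19:5455496-5455555 and the Batf probe at chr12:87049872-87049929.

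Of all probes, 56.8% were well above background on the cast array and 60.6% on the control array, and no spot for a gene was saturated. The dimmest probe that passed the scanner's background test had a signal of 20.6 on the cast array and 13.1 on the control array, in arbitrary units. All 9 skeletal muscle fibre markers, creatine kinase and fast contractile proteins among them, were well above background on both arrays. Across 15137 genes measured on both arrays, 338 (2.23%) were higher in cast muscle by 2-fold or more and 318 (2.10%) lower by as much, with each array scaled to its 75th percentile. With no scaling the split was 834 higher and 120 lower, and with scaling on spike-in controls it was 863 and 118. These settings lifted the median log2 ratio of all genes by 0.34 and 0.35, and every member by the same amount. Log2 ratios below are log2(cast/control) with the 75th percentile scaling unless another is named, and signals are the scanner's processed signals before scaling between arrays.

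All 7 measured AP-1 and ATF3 genes had a log2 ratio above 0 on the cast array, which 47.0% of all genes had. At least 2-fold higher were 3 of the 7, Fos, Fosb and Junb, where 2.23% of all genes were, and 0 were at least 2-fold lower, where 2.10% of all genes were. At least 1.5-fold higher were 4 of the 7, with Atf3 added, against 7.05% of all genes, and 0 were at least 1.5-fold lower, against 8.24%. This smaller threshold was added after the data had been seen. The median log2 ratio of the 7 was 0.82, and that of all genes was -0.03. The list is small and its members were chosen with earlier results of these data known, so these shares describe it and test nothing.

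**Figure D1:**
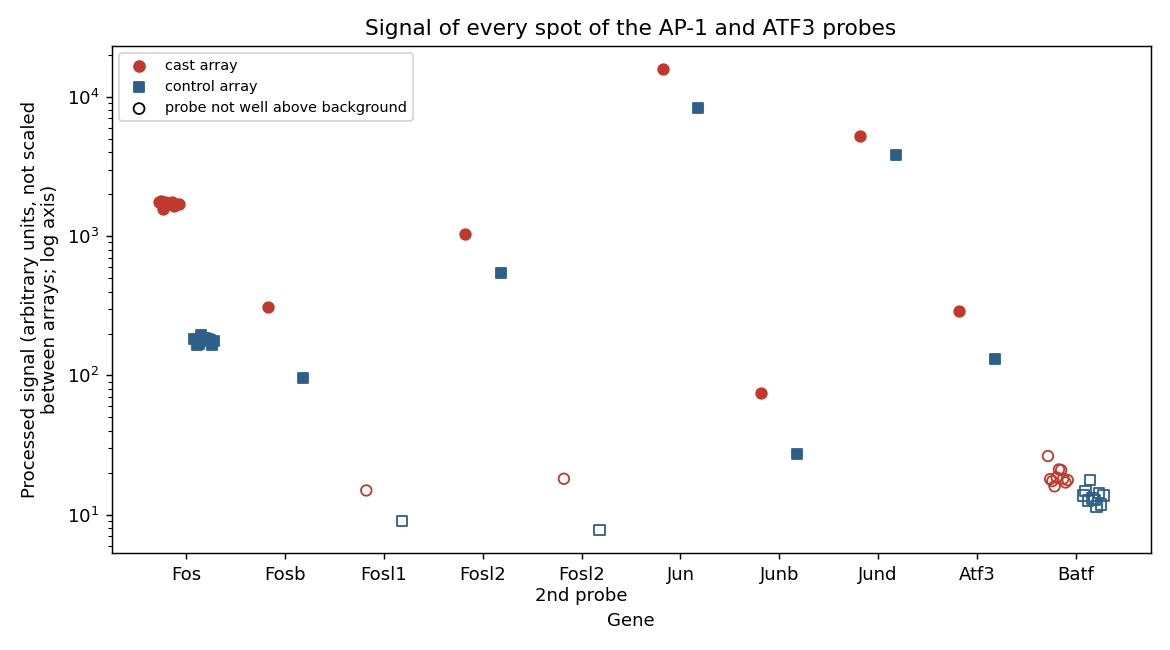
Processed signal of every spot of the 10 probes, on a log axis in arbitrary units before scaling between arrays, for the cast array (red circles, left) and the control array (blue squares, right). The 10 Fos spots lie between 1565 and 1789 on the cast array and between 165 and 196 on the control array, and open symbols mark probes not well above background.

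Fos, the founding Fos-family subunit with a short-lived transcript, had the highest ratio of the 7 measured members. Its probe was printed at 10 places, and the spots ranged from 1565 to 1789 with a median of 1710 on the cast array, against 165 to 196 with a median of 179 on the control array. All 10 cast spots were above all 10 control spots. The mean signal was 1708 ± 65.2 on the cast array and 178 ± 9.58 on the control array (SD, n = 10 spots of 1 array each), an error between spots and not between mice. The log2 ratio was 2.93, or 7.60-fold, with a spot-level SD of 0.10. Taken spot by spot at the same place on both arrays, the log2 ratio was 2.83 at the lowest, with a median of 2.92 and an SD of 0.08. Fos ranked 16 from the top among the 15137 genes, and its log2 ratio lay between 2.58 and 3.28 under the 10 alternatives. Among the 3625 other genes within 1 log2 unit of its mean level, Tmem100 (3.05), Arrdc4 (3.07) and Aldh3a1 (2.77) had the log2 ratios nearest to that of Fos, at distances of 0.13, 0.14 and 0.16 over these 2 arrays.

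Fosb, a Fos-family subunit that also has a shorter splice form, had a signal of 312 on the cast array and 96.6 on the control array. This was a log2 ratio of 1.35, or 2.55-fold, and it ranked 151 from the top. The error for genes with a single spot was taken from the 60 replicated probes nearest in level, and it was 0.11 for Fosb. This is the error of a spot, borrowed from other probes, and says nothing of the spread between mice. With normexp, another background correction, its log2 ratio was 0.92, short of 2-fold. Here normexp added 50 to every signal, which narrows the ratios of dim probes by construction.

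Fosl2 (Fra-2), a subunit without the strong transactivation domain of Fos, was read by 2 probes. The bright probe had 1027 on the cast array and 543 on the control array, a log2 ratio of 0.58 with a spot-level SD of 0.09. The dim probe had 18.1 on the cast array and 7.76 on the control array and was not well above background on either, so it carries no fold. Fosl1 (Fra-1) had 15.0 on the cast array and 9.05 on the control array, and neither value was well above background. The 4 Fos-family genes thus comprised 1 gene past 4-fold, 1 past 2-fold, 1 below 2-fold and 1 not measured.

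Jun, the subunit with which Fos was first found paired, had a signal of 15826 on the cast array and 8369 on the control array. Its log2 ratio was 0.58, with a spot-level SD of 0.08. Fosl2 and Jun were both just short of 1.5-fold, and their log2 ratios differed by 0.00041. Jund, a subunit that many resting tissues express steadily, had 5228 on the cast array and 3826 on the control array. Its log2 ratio of 0.11 was the lowest of the 7, 1.08-fold with a spot-level SD of 0.08, and 64.4% of all genes lay below it. Unscaled it was 0.45, and scaled on the spike-ins 0.46.

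Junb, a Jun-family subunit described in mouse muscle as a factor that maintains fibre size, had a signal of 74.6 on the cast array and 27.2 on the control array. Its log2 ratio was 1.12, or 2.17-fold, with a spot-level SD of 0.17, so 2-fold lies within that SD of the value. The probe was dim. Its raw brightness was 129 on the cast array and 83.4 on the control array, over a local background of 44.5 and 45.0. With normexp, whose offset narrows the ratio of so dim a probe, the log2 ratio was 0.29. The other 9 alternatives kept it at or above 2-fold. All 9 use the scanner's own background subtraction, so they do not show how the ratio depends on that step. Among the 9, the mean of probes and the looser detection rule cannot move a gene with 1 measured probe. Median, spike-in and no scaling and the percentile over measured probes raise every log2 ratio by a constant. Junb was thus higher on the cast array under each of the 10 alternatives, which are not independent of each other. The amount differed with the background correction and its offset.

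Atf3, a bZIP factor induced by stress that pairs with Jun proteins, had a signal of 291 on the cast array and 130 on the control array. Its log2 ratio was 0.82, or 1.76-fold, with a spot-level SD of 0.10. It lay past 2-fold without scaling (1.16) and when scaled on the spike-ins (1.17), and was 0.53 with normexp. Batf, a bZIP factor of lymphocytes that pairs with Jun proteins and lacks a transactivation domain, did not pass the background test on either array. Its 10 spots ranged from 16.0 to 26.4 on the cast array and from 11.5 to 17.8 on the control array, and 0 of them on the cast array and 1 on the control array passed the scanner's background test. The 2 ranges overlapped, and no fold is given.

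**Figure D2:**
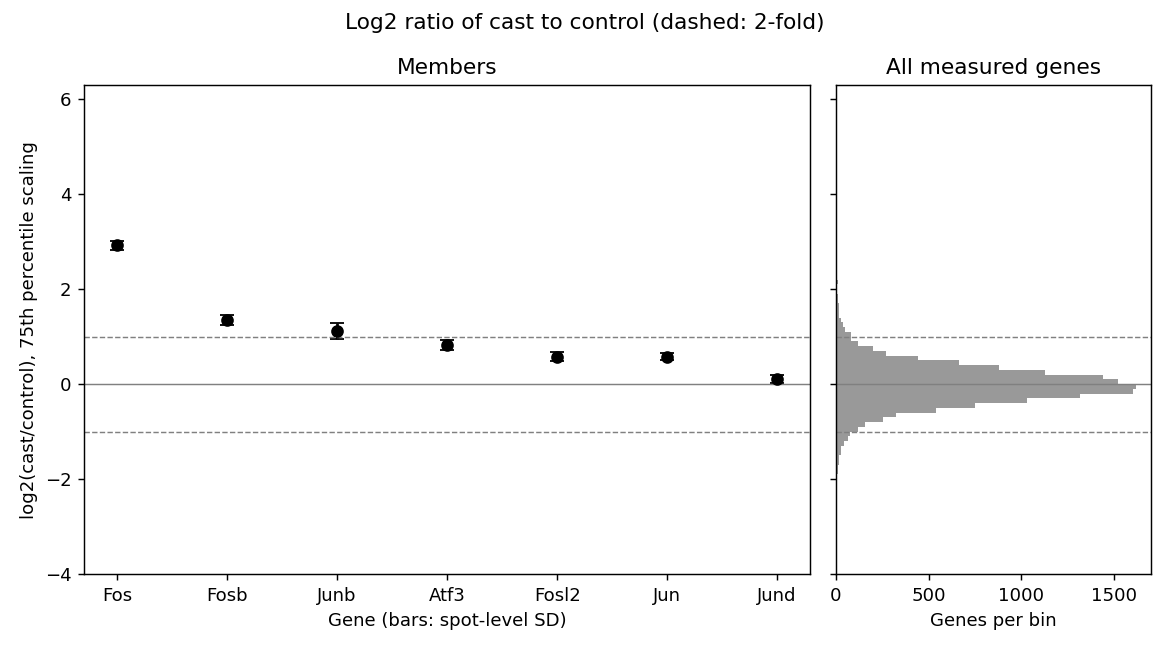
Log2(cast/control) of the 7 measured members with the 75th percentile scaling (left, bars are the spot-level SD) beside the number of all 15137 genes in bins of the same ratio (right). Fos at 2.93, Fosb at 1.35 and Junb at 1.12 lie above the dashed 2-fold line, and Jund at 0.11 lies among the bulk of genes.

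The measured members spread over 2.81 in log2 ratio. A difference between the log2 ratios of 2 members does not depend on a constant scaling of the arrays. The Fos fold was 2.98 times that of Fosb, 5.08 times that of Jun and 7.03 times that of Jund, so the transcripts of Fos and its Jun partners were not higher by the same factor. Within the Jun family, the fold of Junb was 1.45 times that of Jun and 2.01 times that of Jund with the 75th percentile scaling. With normexp the direction between Junb and Jun turned, with log2 ratios of 0.29 for Junb and 0.60 for Jun. The normexp offset narrows the ratio of the dim Junb probe by construction, so this turn cannot decide their order. The order of the middle members is not settled. Fosb and Junb, and Fosl2 and Jun, are neighbours whose bars of 1 spot-level SD overlap. With normexp Junb was also below Fosl2 (0.54) and Atf3 (0.53), and Atf3 was below Fosl2 and Jun. Fos was first, Fosb second and Jund last under both background corrections.

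**Figure D3:**
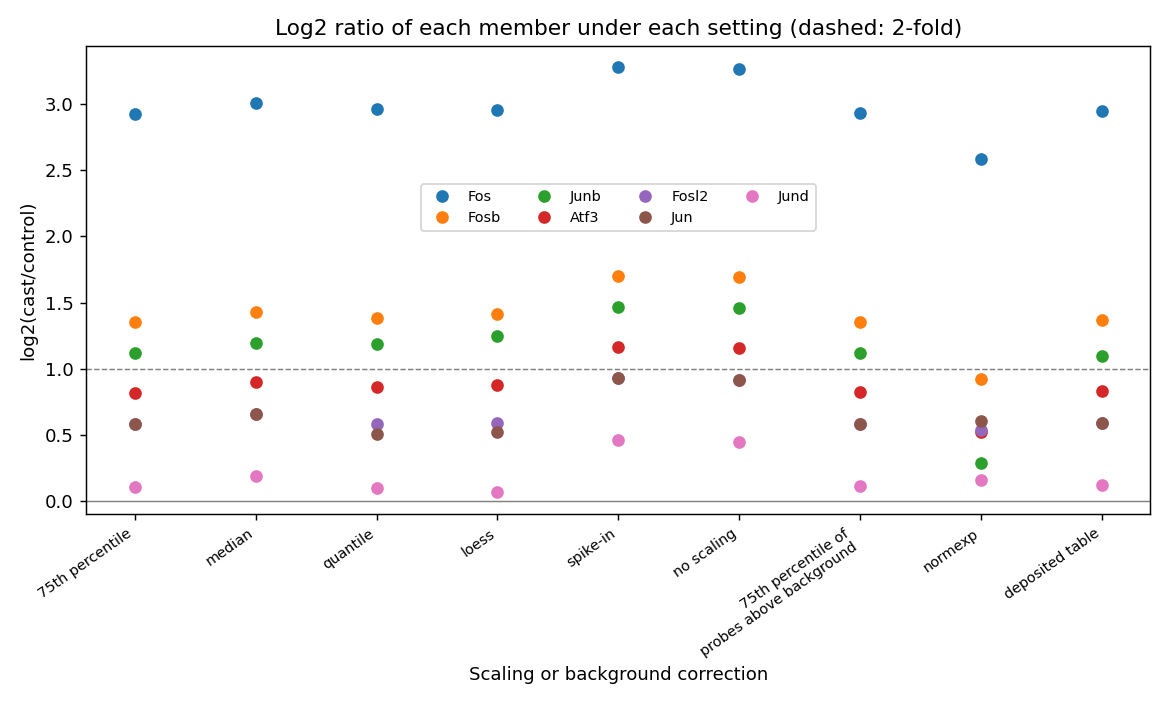
Log2(cast/control) of each measured member (colours) under the 75th percentile scaling and 8 other scalings, background corrections or tables, with the 2-fold line dashed. Every point lies above 0, spike-in and no scaling lift all 7 genes, and normexp lowers Junb to 0.29 and Fosb to 0.92. Fosl2 lies under Jun where the points coincide.

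The other genes of the pathway were read from 4 lists. These were made with earlier results of these data known, so their shares describe the lists and test nothing. Of 26 other immediate early genes, 22 were measured and 20 of them had a log2 ratio above 0, against 47.0% of all genes. Their median was 0.54, against -0.03 for all genes, and 3 were at least 2-fold higher, where 2.23% of all genes were. These were Ccn1, a matrix-bound growth regulator (1.38), Btg2, an antiproliferative factor (1.10), and Klf10, a zinc finger repressor (1.01). The neuronal activity gene Arc was the single member at least 2-fold lower, where 2.10% of all genes were. Its log2 ratio was -1.05 with signals of 53.3 on the cast array and 87.2 on the control array, and it was short of 2-fold under 6 of the 10 alternatives. Egr3, Egr4, Nr4a3 and Zfp36 were not well above background on either array.

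Of 26 other bZIP partners and relatives, 25 were measured. Their median was -0.04, against -0.03 for all genes. Above 0 were 10 of the 25, against 47.0% of all genes, and 0 were at least 2-fold higher or lower, against 2.23% and 2.10%. Kinases and serum response factors that act upstream of AP-1 gave 23 measured genes of 24, with a median of -0.08 and 9 above 0, against 47.0% of all genes. Map2k6, a kinase that activates p38, was at least 2-fold lower at -1.67, with signals of 999 on the cast array and 2516 on the control array, and 0 were at least 2-fold higher. With 1 lower and 0 higher of 23, the list lay near the 2.10% and 2.23% of all genes. Chosen after their values were seen, serum response factor (Srf), which drives Fos through the CArG box, was at -0.94, while its coactivators Mrtfb and Mrtfa were at 0.94 and -0.14. Its partner factors Elk4, Elk3 and Elk1 were at 0.84, 0.16 and -0.23, so these genes did not lie on 1 side of 0. The Elk1 probe had signals of 207613 on the cast array and 192323 on the control array, where the fibre marker Ckm had 184877 and 189065. Whether a probe this bright reads Elk1 alone was not tested. Levels of kinase transcripts say nothing of kinase activity.

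Of 21 known AP-1 target genes, 16 were measured. Above 0 were 10 of the 16, against 47.0% of all genes, and the median was 0.39, against -0.03 for all genes. At least 2-fold higher were 6 of the 16, against 2.23% of all genes, and several of them were known from earlier results of these data when the list was made. They were the metallothionein Mt2 (2.91), galectin-3 (Lgals3, 2.66), the chemokine Ccl2 (2.34), the protease inhibitor Timp1 (2.19), the matrix protease Mmp3 (2.16) and the TWEAK receptor Tnfrsf12a (1.98). Mmp3 was dim, with signals of 144 on the cast array and 25.6 on the control array. The Mt2 probe can share signal with Mt1. The cell cycle gene Ccnd1, named after its value was seen, was the 1 gene at least 2-fold lower, at -1.08, where 2.10% of all genes were. The collagenase Mmp13 passed the background test on the cast array alone and was at least 7.08-fold higher there. This bound sets its cast value against the dimmest probe that passed the background test on the control array. Mmp9, Il6, Il1b and Cxcl1 were not well above background on either array.

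**Figure D4:**
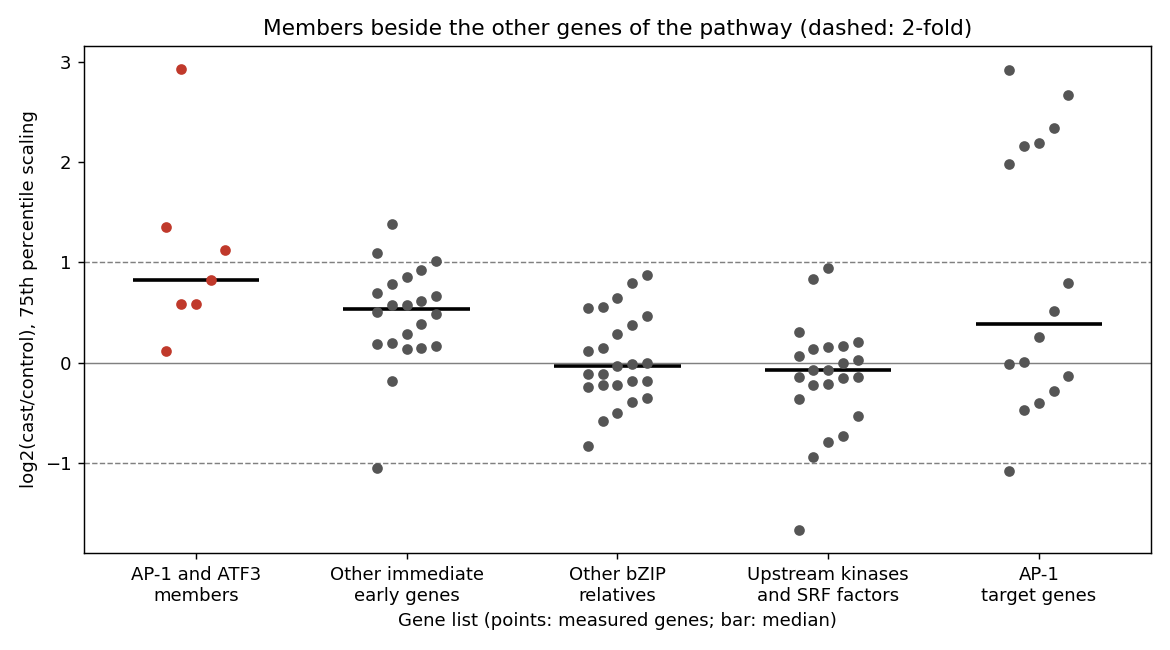
Log2(cast/control) of each measured gene (points) in the members and in 4 lists of the pathway, with the list median as a bar and 2-fold lines dashed. The medians are 0.82 for the members, 0.54 for other immediate early genes, -0.04 for bZIP relatives, -0.08 for upstream kinases and SRF factors and 0.39 for AP-1 targets.

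AP-1 genes are active in many cell types, so markers of the cells a muscle holds are given beside these values. Of all genes, 47.0% were above 0, 2.23% at least 2-fold higher and 2.10% at least 2-fold lower. Of the 9 skeletal muscle fibre markers 1 was above 0, with a median of -0.19 and summed scaled signals of 327419 on the cast array and 381855 on the control array, in percent of the 75th percentile. In a bulk sample, fewer cells of a type and less RNA per cell cannot be told apart. Neutrophil markers had 5 of 6 genes measured and 2 at least 2-fold higher, S100a8 (2.21) and S100a9 (2.23), while Retnlg was at 0.84, Mpo at 0.18, Ly6g at -0.41 and Cxcr2 was not well above background. Above 0 were 4 of the 5, with a median of 0.84, the value of Retnlg. The Retnlg signals, 32.0 on the cast array and 14.1 on the control array, lay near the dimmest that passed, 20.6 and 13.1. The summed scaled signal of the neutrophil markers was 254 on the cast array and 67.4 on the control array, in percent of the 75th percentile. Most of both sums came from S100a9, with signals of 921 and 156, and S100a8, with 225 and 38.6. For macrophage markers, 6 of 8 were measured, 4 were above 0 and 0 were 2-fold apart, with a median of 0.07, and Cd68 and Cd163 were not well above background. Their sums were 1644 on the cast array and 2017 on the control array, and most of both came from Itgam (-0.53), with signals of 4634 and 5312, while Lyz2 was at 0.58 and Mrc1 at 0.50. Lymphocyte markers, the cells known for Batf, had 3 of 8 measured on both arrays, and Cd3d, Cd3g, Cd8a and Ms4a1 were not well above background on either, while Cd79a was on the control array alone. The sums were 204 on the cast array and 201 on the control array. Fibroblast markers had 0 of 6 above 0 and sums of 11038 and 15660 on the cast and control arrays, with Col1a1 at -1.76. Satellite cell markers had 5 of 6 measured, 3 above 0, a median of 0.08 and sums of 5695 on the cast array and 4121 on the control array. Cdh15 was at 1.35, Itga7 at 0.69, Pax7 at 0.08, Cd34 at -0.26 and Vcam1 at -0.72. Endothelial markers summed to 1170 and 1324 and Schwann cell markers to 265 and 275, with 0 genes 2-fold apart in both. What part these cells had in the AP-1 values was not tested.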

How the data were processed

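Gene expression was measured in 2 pools of mouse gastrocnemius RNA, 1 array each. The scanner software was Agilent Feature Extraction 9.5 (source: the submitters' processing notes). The deposited processed intensity of a spot is its brightness after background subtraction and detrending within the array, not normalized between arrays, per the file headers. Both arrays share a slide and a scan, per the file headers. The value table of the series, deposited by the authors, holds a linear intensity. It equalled the processed signal over the array's 75th percentile, times 100, to within 0.500, so its scale and direction are known. Its column medians were 8.70 for cast and 9.00 for control, and 0 of its columns were left unused.

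Control spots and spots flagged as non-uniform (9 cast, 2 control) were left out, log2 signals of replicate spots were averaged, and each array's 75th percentile over 39418 probes (486 for cast, 385 for control) was subtracted. A probe was measured when more than 0.5 of its spots were well above background. A gene took its brightest probe measured on both arrays. Names came from the accession for 26055 of 39429 probes (RefSeq table, GRCm38) and otherwise from the array, with placeholder names dropped. For each log2 ratio, the spot-level SD combines both arrays' SDs over replicate spots (259 replicated probes, median 0.10). It covers neither mice nor hybridisations. Normexp used an offset of 50 in limma 3.58.1 (R 4.3.3). Other steps used Python 3.11.15 with numpy 2.4.6. Of these, the 75th percentile scaling and the 2-fold count were tested on simulated data, with 1 probe per gene and every probe measured. With 1 array per group no test was run, and sizes are read against a 2-fold threshold.

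The members, lists and thresholds were chosen with earlier results of these data known. Named genes are all members, list genes at least 2-fold apart (at most 6 per list), the genes a result turns on and the 3 nearest to Fos. Srf with its cofactors, Ccnd1 and the cell markers under 2-fold were named after their values were seen. Alternatives were 5 other scalings, the percentile over measured probes, normexp, the deposited table, the mean of probes and a looser detection rule.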

Additional observations from a re-analysis of the deposited data

How the results depend on the processing

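No paired analysis was possible because each group holds 1 array, and no array could be left out. Fos stayed at least 2-fold higher under all 10 alternatives, Fosb and Junb under 9 of 10, and all 7 measured members stayed above 0. The mean of probes and the looser detection rule cannot move the members, which have 1 measured probe each and are detected on both arrays or on neither. Median scaling, spike-in scaling, no scaling and the percentile over measured probes each shift every log2 ratio by a constant. The shifts were 0.08, 0.35, 0.34 and 0.003, each upward, so these settings could not lower a member. The deposited table holds the same processed signals over the array's 75th percentile. Only normexp changes the background correction. With normexp, 1 member in place of 3 was at least 2-fold higher (Fos), the members' median was 0.54 in place of 0.82, and 184 genes were at least 2-fold higher and 148 lower in all, in place of 338 and 318. The offset of 50 added to every signal narrows the ratios of dim probes by construction. With no scaling and spike-in scaling, 4 members were at least 2-fold higher and their median was 1.16 and 1.17. The counts over all genes were 834 and 863 higher and 120 and 118 lower. Other immediate early genes at least 2-fold higher became 8 and 8, bZIP relatives 2 and 2, and upstream kinases and SRF factors 2 and 2. Median scaling gave 1 upstream kinase or SRF factor at least 2-fold higher, in place of 0. The looser detection rule gave 536 genes at least 2-fold lower among 16465. Other immediate early genes at least 2-fold lower were 0 in place of 1 (Arc) with loess, quantile, spike-in, median and no scaling and with normexp. AP-1 targets at least 2-fold lower were 0 in place of 1 (Ccnd1) with median, spike-in and no scaling and with normexp. Other immediate early genes at least 2-fold higher were 2 in place of 3 with loess, and AP-1 targets 5 in place of 6 with normexp. For Junb, Fosl1, Batf and the AP-1 target Mmp3, signal over background limits what can be read.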
